A study of Marchantia polymorpha and Arabidopsis thaliana and Oryza sativa Japonica Group with 80 samples.

Results

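Arabidopsis loci carry systematic names in which the figure after AT is the chromosome and the last number grows along it, so a run of names is a run of neighbouring genes. The loci described here lie in 3 such runs, the names starting AT1G78 to AT1G80 on chromosome 1, AT4G20 to AT4G24 on chromosome 4 and AT5G28 on chromosome 5. They were chosen by the log2 genotype differences measured in the study's mutant experiment, which gathered there, so every genotype difference below describes the choice and carries no test. Of 978 loci with these names, 5 were left out by name (AT1G80840, AT4G22070, AT4G23810, AT4G24240 and AT5G28650) and 201 had counts in fewer than 3 libraries. The remaining 772, of the 34218 loci in the table, are 286 in AT1G78 to AT1G80, 442 in AT4G20 to AT4G24 and 44 in AT5G28. At the edge of that rule, 11 loci had counts in exactly 3 libraries, with totals of 3 to 9 counts, and 20 had counts in exactly 2, with totals of 2 to 7. A filter on low counts left 670 of the 772 for testing (252, 379 and 39), among 19316 tested loci, and the 102 others had a median total of 22.5 counts over all libraries.

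The groups are 7-day-old seedlings of a line labelled as a knockout of wrky25/33 and of Col-0, the common laboratory strain, each at 0, 2 and 24 h of 100 mM NaCl, with 3 libraries per group and 18 in all. All were grown in liquid medium under continuous light, and total RNA of seedlings was sequenced. The labels name neither the alleles of the mutant line nor how it was made, and the number of seedlings per library is not given in the sources used here. Libraries held 17431071 to 41887006 counted reads. No untreated library was taken at the later times, so salt and hours since 0 h cannot be told apart. In bulk seedlings, fewer cells of a type and less RNA per cell cannot be told apart either.

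Neighbouring genes are inherited together, and 2 lines can differ in DNA along such a linked run. Many plant gene families also stand in tandem, as rows of near copies made by repeated duplication, and the runs on chromosomes 1 and 4 hold such rows of tau glutathione transferases, which couple glutathione to toxic compounds, and of cysteine-rich receptor kinases, which sit in the plasma membrane and sense signals outside the cell. Reads that map to several places were set apart in the deposited counts, and for near copies the split of reads is uncertain. Gene names below come from hand-written lists of textbook names, since the count tables give locus names alone, and a locus outside these lists is given by its locus name with no role.

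The transcription factors after which the line is labelled were not called lower in it. WRKY25 (AT2G30250) had 44.5, 33.2 and 42.0 CPM (counts scaled to library size) in the 3 libraries of the labelled line at 0 h, against 41.2, 24.7 and 41.1 in Col-0. WRKY33 (AT2G38470) had 44.5, 30.7 and 164 CPM in the labelled line at 0 h, against 30.0, 20.5 and 229 in Col-0. With times pooled, the log2 differences, labelled line minus Col-0, were 0.06 ± 0.19 for WRKY25 and 0.01 ± 0.42 for WRKY33 (± SE here and below, adjusted p = 1.00 for both, edgeR's quasi-likelihood test). Counts over a whole gene need not show a lesion, but these do not show the knockout that the label names, and the group is called the line labelled wrky25/33 or the labelled line throughout.

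Other WRKY loci stood apart between the groups and are given because their values were seen. WRKY40 (AT1G80840), which lies inside the chromosome 1 run but was left out by name, had 106 to 399 CPM (median 188) in the labelled line, against 5.11 to 91.1 (median 10.9) in Col-0. WRKY60 (AT2G25000) had 0 to 0.146 CPM (median 0) in the labelled line, against 12.7 to 34.5 (median 17.6) in Col-0, and WRKY18 (AT4G31800) had 4.45 to 16.6 CPM (median 6.80), against 19.8 to 138 (median 40.8). None of these 3 overlapped between the groups, and the last 2 lie outside the runs. What part they have in any value below was not tested.

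Shoot transcripts were abundant, with RBCS1A, the small subunit of Rubisco, at 7788 to 21285 CPM in the labelled line and 8533 to 22312 in Col-0. All 3 root markers were near 0 in both groups, the nitrate transporter NRT2.1 (AT1G08090) at up to 0.965 CPM in the labelled line and 0.873 in Col-0, and COBL9 (AT5G49270) and IRT1 (AT4G19690) at up to 0.168 and 0.0970 in the labelled line and 0.238 and 0 in Col-0. The seed storage transcripts CRA1 (AT5G44120) and CRU3 (AT4G28520) reached 54.7 and 18.2 CPM in 1 library, the labelled line at 2 h in replicate 2, and CRA1 reached 6.86 in the labelled line at 24 h in replicate 1, against at most 0.107 in any Col-0 library. Replicate 3 at 0 h also stood apart in both genotypes, as in WRKY33 above, and the deposited sample sheet calls the replicate numbers batches. At 24 h the Col-0 library of replicate 2 stood apart too. On the first principal component, the main axis of spread among the libraries, it was at -13.8. The other 24 h libraries were at -98.3 to -48.3. Counts of calls without it are given below.

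Along the genome, the genotype difference was dense in the 3 runs and sparse elsewhere. With times pooled, 97 of all 19316 tested loci, or 0.502%, passed an adjusted p of 0.05, and 63 of them were among the 670 loci described here, 28 higher in the labelled line (0.228% of all tested loci were called higher) and 35 lower (0.274% were called lower). By run, in chromosome order, 4, 20 and 4 were higher and 13, 13 and 9 lower. The other 18646 tested loci held 34 calls, among them AT1G80840 and AT5G28650, which lie in the runs but were left out by name. This is what the rule selected, and nothing is read from it.

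Cut into blocks of loci whose names begin alike, such as AT1G78, the runs showed shares called of 9.3% in AT1G78, 3.49% in AT1G79, 8.64% in AT1G80, 14.3% in AT4G20, 7.95% in AT4G21, 9.86% in AT4G22, 7.69% in AT4G23, 5.62% in AT4G24 and 35% in AT5G28. These shares count every tested locus of the block, those left out by name included. Of 263 other blocks with at least 10 tested loci, 241 held no called locus, 18 held 1 and 4 held more. The 2 blocks before the chromosome 1 run were among the 4, with 5 called loci in AT1G76 (5.68%) and 3 in AT1G77 (3.75%). The others were AT3G01 with 3 called loci (3.49%, the same share as AT1G79) and AT3G26 with 2 (2.44%). The highest share among the 263 was 9.09%, from 1 of 11 tested loci in AT2G08.

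**Figure D1:**
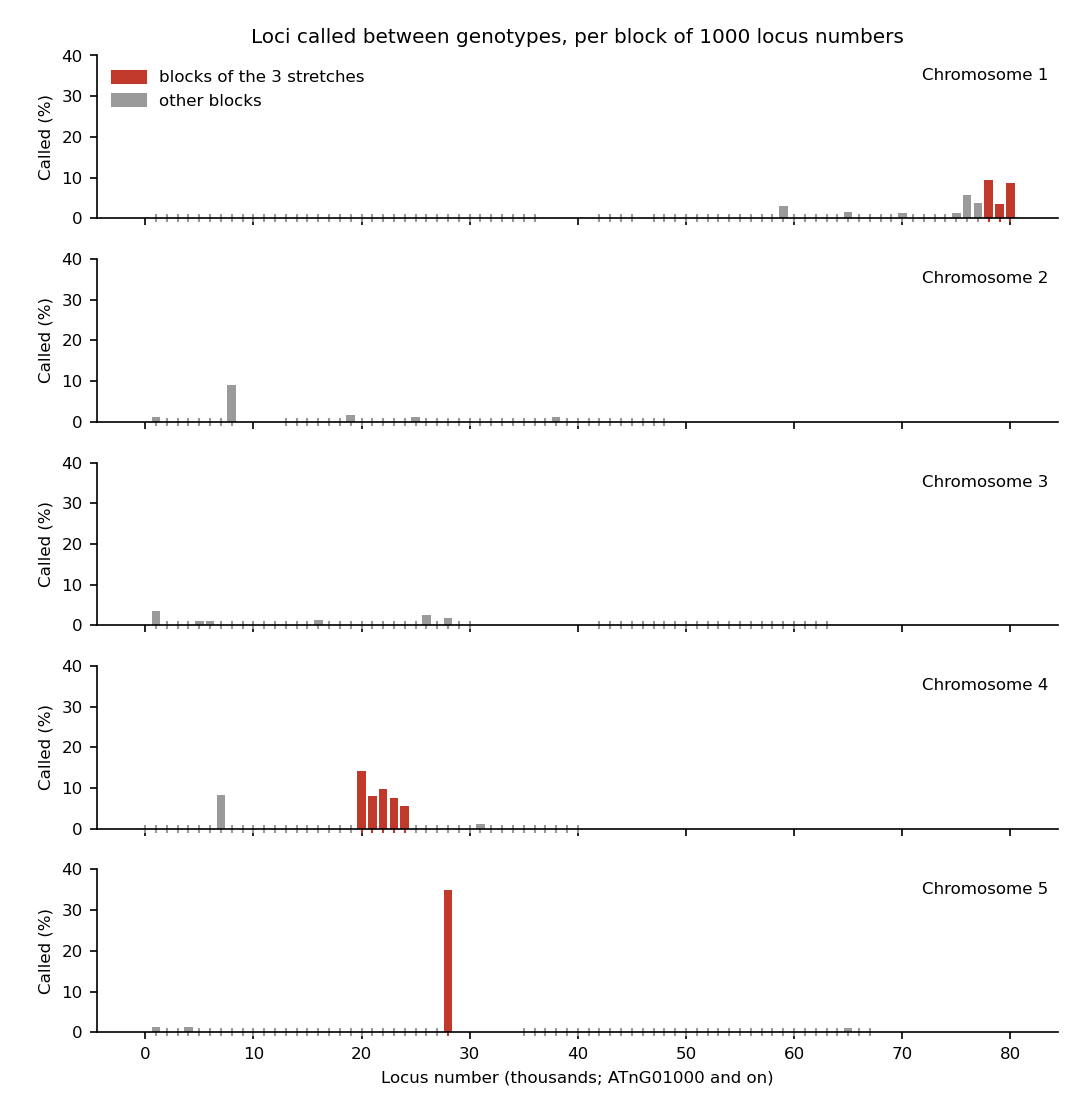
Share of tested loci called between the line labelled wrky25/33 and Col-0 (times pooled, adjusted p under 0.05, in percent) in each block of loci whose names begin alike (such as AT1G78), by chromosome. Red bars are the 9 blocks of the runs, from 3.49% to 35%, grey bars are the other blocks with at least 10 tested loci, and a tick at 0 marks a block that was tested.

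The edges of the runs differed in how sharp they were. No locus was called in AT4G19 or AT4G25, the blocks on both sides of the chromosome 4 run, nor in AT5G27. After AT5G28 the blocks up to AT5G34 held at most 6 tested loci each, with 1 call, AT5G33390 (0.0439 to 0.195 CPM in the labelled line, against 0.189 to 0.748 in Col-0), and AT5G35 held 46 tested loci and no call. On chromosome 1 the differences went on below the run. AT1G75945 had 0 to 0.224 CPM in the labelled line, against 13 to 18.3 in Col-0, a log2 difference of -8.64 ± 0.41, and AT1G76960 had 0 in all 9 libraries of the labelled line, against 0.129 to 1.98 in Col-0. In the other direction AT1G77230 had 2.55 to 8.87 CPM in the labelled line, against 0.837 to 2.47 in Col-0. These 3 loci lie outside the rule that set the run.

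A stricter reading asks which loci had all 9 libraries of the labelled line on one side of all 9 Col-0 libraries. Of all tested loci 47 did (0.243%), 25 with the labelled line higher (0.129%) and 22 with it lower (0.114%). Of the 670 loci of the runs 35 did, 20 higher and 15 lower in the labelled line, and all 35 were among the 63 called. Most of the 670 differed little. The median absolute log2 difference was 0.19 over the 670, beside 0.09 over all tested loci, and 66 of them (9.85%) were past 1, beside 1.18% of all tested loci. The signed medians were 0.00 over the 670 and -0.01 over all tested loci.

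The 3 runs differed in spacing. In AT1G78 to AT1G80, 7 of 252 loci did not overlap between the genotypes, from AT1G78320, the 29th tested locus, to AT1G80980, the 252nd and last, and 129 loci with overlap lay in a row between 2 of them. In AT4G20 to AT4G24, 19 of 379 loci did not overlap, from AT4G20040 (5th) to AT4G24890 (370th), with a median of 16.5 and at most 69 loci between neighbours. In AT5G28, 9 of 39 did not overlap, from the first tested locus, AT5G28010, to the last, AT5G28910, with a median of 2 and at most 9 loci between them. The share of loci under 1 in absolute log2 difference was 91.7%, 91.3% and 69.2% in the 3 runs, in chromosome order.

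Higher and lower loci were mixed along each run. The labelled line was higher at 2 and lower at 5 of the 7 loci on chromosome 1, higher at 14 and lower at 5 of the 19 on chromosome 4, and higher at 4 and lower at 5 of the 9 on chromosome 5. Next to each other in order stood 5 pairs of such loci. In 3 pairs both members had the same sign, AT1G80970 and AT1G80980 (-7.37 and -3.84 on the log2 scale), AT4G22390 and AT4G22410 (1.40 and 8.29) and AT4G24420 and AT4G24430 (6.99 and 4.11). In the other 2 pairs the signs were opposite, AT4G21860 and AT4G21865 (-0.90 and 1.42) and AT5G28460 and AT5G28463 (-3.46 and 6.27). Neighbouring transcripts can overlap, and which strand the counts used is not given in the sources used here, so reads of such pairs may not be told apart.

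**Figure D2:**
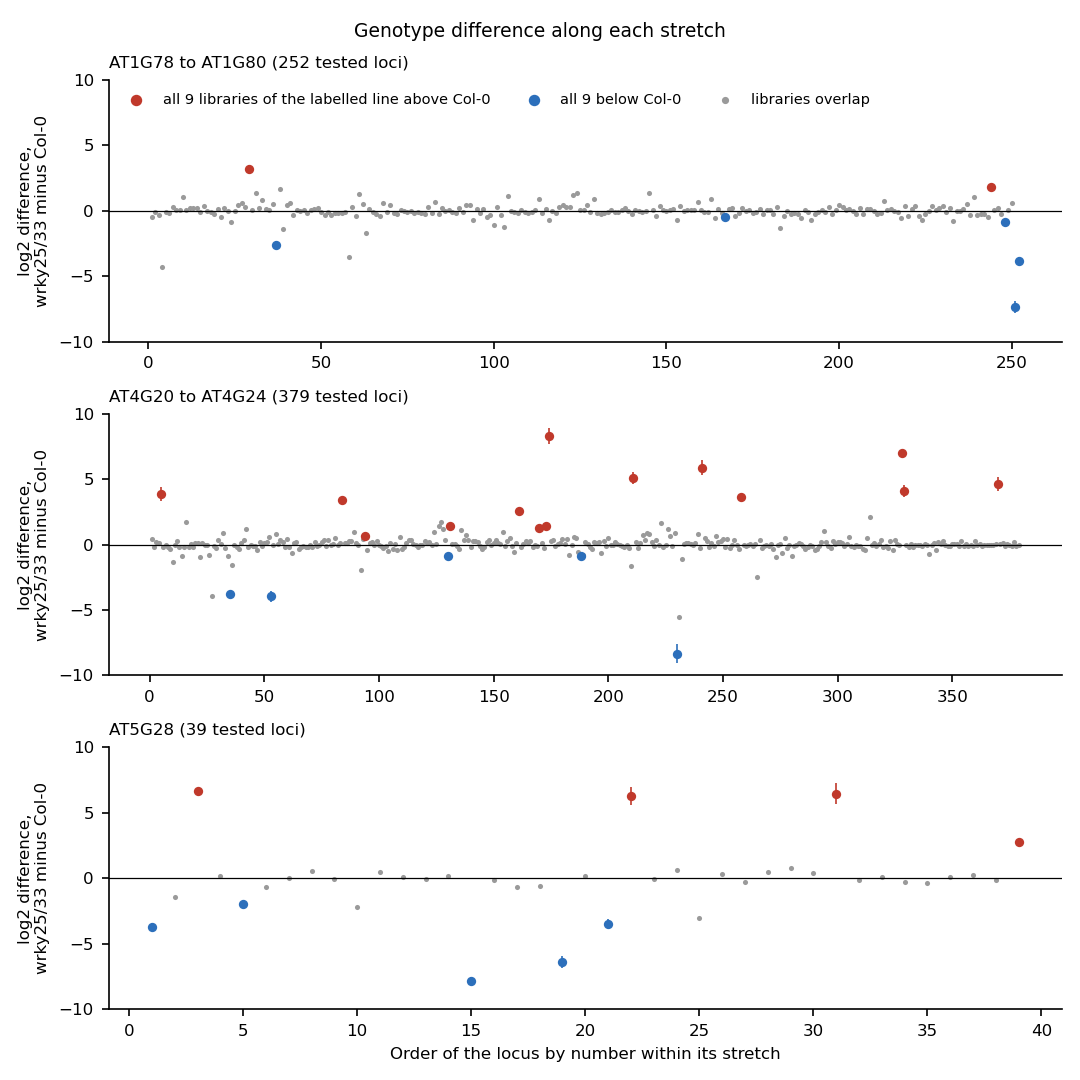
Log2 genotype difference (line labelled wrky25/33 minus Col-0, times pooled) of every tested locus against its order in the 3 runs of 252, 379 and 39 loci. Red points are the 20 loci with all 9 libraries of the labelled line above all 9 Col-0 libraries and blue points the 15 with all 9 below, both with bars of ± SE, and grey points the loci that overlapped.

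On chromosome 1 the glutathione transferase GSTU23 (AT1G78320) was the first locus of the run without overlap and stood higher in the labelled line. Its libraries had 7.27, 4.87 and 7.18 CPM at 0 h, then 8.41, 6.19 and 9.89 at 2 h and then 12.5, 10.9 and 15.6 at 24 h in the labelled line, against 0.428, 0.405 and 1.24, then 1.18, 0.585 and 0.935, then 1.99, 0.802 and 1.38 in Col-0. The log2 difference was 3.23 ± 0.24. Of the 5 tau glutathione transferases of this tandem row, 4 were tested, and GSTU23 was the one called between genotypes, while GSTU19, GSTU20 and GSTU22 had differences of 0.23 ± 0.16, 1.36 ± 0.39 and 0.06 ± 0.25 and overlapped. The median over the 4 was 0.79, beside -0.01 over all tested loci.

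Near the end of chromosome 1, AT1G80970 was almost unread in the labelled line, with 0.112 CPM in replicate 1 at 0 h, 0.0472 in replicate 2 at 2 h and 0 in the other 7 libraries, against 2.14 to 3.09 CPM (median 2.58) in Col-0. That is 3 counts in the labelled line and 529 in Col-0, a Col-0 to labelled-line ratio of 179 after scaling for depth (95% counting interval 60.9 to 871). Its neighbour AT1G80980 had 0.0485 to 0.503 CPM (median 0.366) in the labelled line, against 2.82 to 8.58 (median 4.52) in Col-0. Slightly before them AT1G80900 went the other way, with 4.69 to 7.15 CPM (median 6.27) in the labelled line, against 1.03 to 2.96 (median 1.67) in Col-0, a log2 difference of 1.81 ± 0.18.

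The 3 other loci of this run without overlap were lower in the labelled line and kept part of their level. AT1G78460 had 4.23 to 14.0 CPM (median 5.81) in the labelled line, against 15.2 to 76.8 (median 38.0) in Col-0, and AT1G80940 had 17.3 to 32.8 (median 21.8), against 33.3 to 56.6 (median 40.2). HSP91 (AT1G79930), a large relative of the HSP70 chaperones, had 70.3 to 82.4 CPM (median 76.5) in the labelled line and 88.2 to 136 (median 108) in Col-0, a log2 difference of -0.49 ± 0.09 and the smallest among the 35. The other 9 tested members of the chaperone list lay between -0.26 and 0.22 and were not called, among them BIP1 (AT5G28540), the HSP70 of the endoplasmic reticulum, at -0.26 ± 0.19.

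On chromosome 4 the loci without overlap ran from AT4G20040, which had 0.195 to 0.884 CPM (median 0.632) in the labelled line and 0 to 0.107 (median 0.0213) in Col-0, to AT4G24890, with 0.423 to 2.90 (median 1.31) in the labelled line and 0 to 0.213 (median 0.0426) in Col-0. AT4G20480 was the most abundant of those lower in the labelled line by more than 1 on the log2 scale, with 4.36, 3.82 and 4.03 CPM at 0 h, then 5.59, 5.62 and 3.27 at 2 h and then 4.91, 2.07 and 4.07 at 24 h in the labelled line, against 47.4, 58.4 and 54.1, then 54.6, 52.8 and 59.3, then 61.3, 46.5 and 74.1 in Col-0. The lowest Col-0 library thus stood above the highest labelled-line library by a wide margin at every time. Its log2 difference was -3.75 ± 0.16.

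Among the loci higher in the labelled line, AT4G21326 had 42.5 to 63.5 CPM (median 53.6), against 2.97 to 8.43 (median 4.92) in Col-0, a log2 difference of 3.41 ± 0.13. AT4G24420 had 27.5 to 41.0 CPM (median 34.6) in the labelled line, against 0.0472 to 0.533 (median 0.257) in Col-0, a difference of 6.99 ± 0.22, and its neighbour AT4G24430 had 0.875 to 2.96 (median 1.86), against 0 to 0.295 (median 0.0943). CORI3 (AT4G23600), a transaminase-like enzyme known for its induction by jasmonate and coronatine, had 14.8 to 59.2 CPM (median 26.2) in the labelled line, against 0.761 to 5.66 (median 1.92) in Col-0. For all 4 the lowest labelled-line library exceeded the highest Col-0 library.

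AT4G22410 had counts in every library of the labelled line, 360 in total and 0.914 to 2.92 CPM, and 0 counts in all 9 Col-0 libraries. With Col-0 set at a floor of 3 counts summed over its libraries, it was at least 118-fold higher in the labelled line. AT4G23380 had 201 counts in the labelled line and 3 in Col-0, a ratio of 66.0 (95% counting interval 22.3 to 323), and AT4G22960 had 300 and 9. In the other direction AT4G20953 had 20 counts in the labelled line and 361 in Col-0. These intervals and floors cover counting error alone.

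More modest differences without overlap were found at AT4G22280 (2.57 ± 0.19), AT4G21865 (1.42 ± 0.17), AT4G22390 (1.40 ± 0.27), AT4G22350 (1.23 ± 0.12) and AT4G21450 (0.69 ± 0.11), all higher in the labelled line, and at AT4G22720 (-0.91 ± 0.10), which was lower. MSRB2 (AT4G21860), a plastid enzyme that repairs oxidised methionine, was also lower, with 93.0 to 148 CPM (median 117) in the labelled line and 182 to 331 (median 210) in Col-0, a difference of -0.90 ± 0.12. The 3 tested MSRB genes next to it in the row, MSRB7, MSRB8 and MSRB9, were not called between genotypes, and the median of the 4 was 0.78. AT4G22390 was low, with 0.873 to 1.76 CPM in the labelled line and 0.0644 to 0.689 in Col-0. Its call was lost in 8 of 23 alternative fits, most of them without a single library, with log2 differences of 1.26 to 1.72 over the 23.

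**Figure D3:**
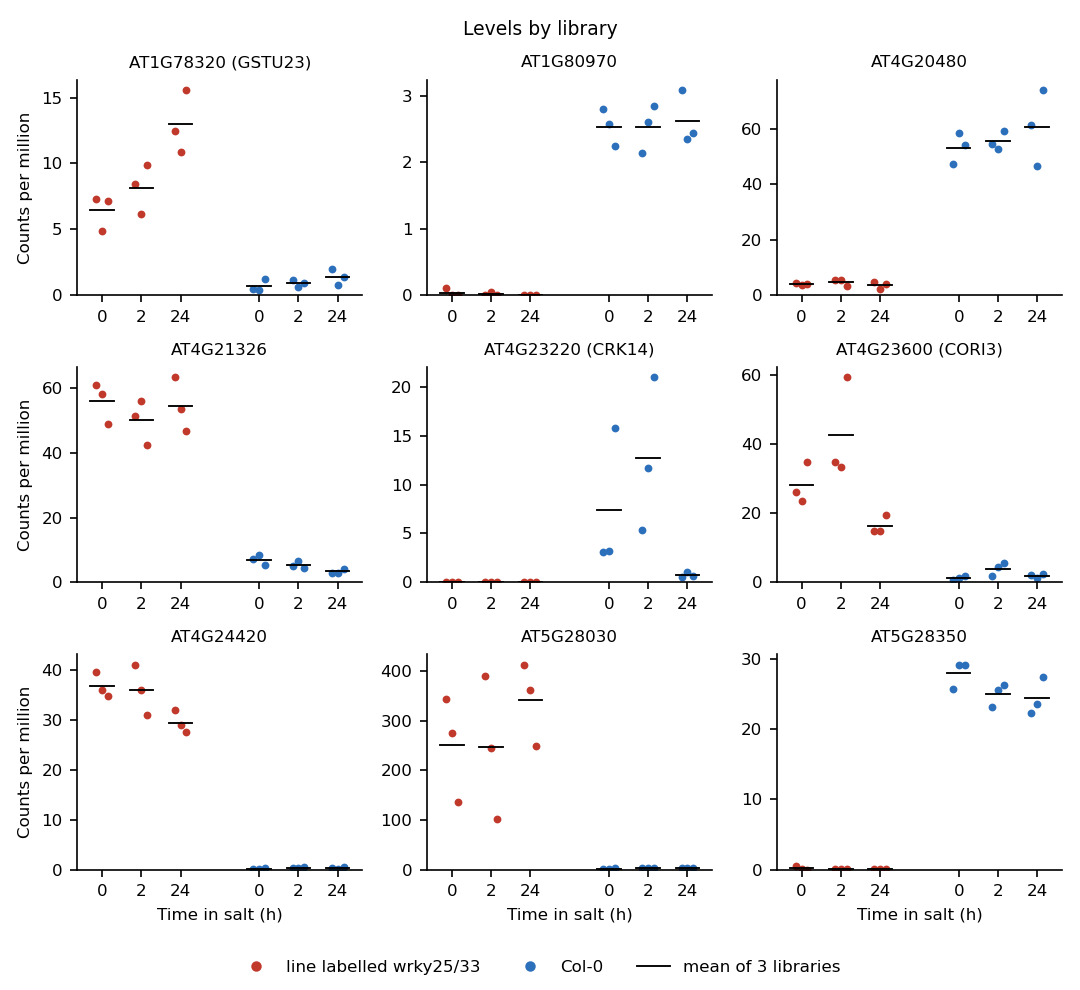
CPM in each library at 0, 2 and 24 h of salt for 9 loci that did not overlap between genotypes, with the line labelled wrky25/33 in red on the left and Col-0 in blue on the right of each panel (points are libraries, bars the mean of 3). AT1G80970, AT4G20480, CRK14 and AT5G28350 were lower in the labelled line and the other 5 higher, at every time.

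The cysteine-rich receptor kinases form a row of neighbouring genes in AT4G23, with 3 more in AT4G21. Of 22 listed, 19 were tested, 1 was called higher in the labelled line and 2 lower, and their median genotype difference was 0.12, beside -0.01 over all tested loci. CRK14 (AT4G23220) had 1 count each in replicate 2 at 2 h and at 24 h and 0 in the other 7 labelled-line libraries, against 3.14, 3.24 and 15.8 CPM at 0 h, then 5.40, 11.7 and 21.0 at 2 h and then 0.579, 1.04 and 0.692 at 24 h in Col-0. With 2 counts in the labelled line and 1396 in Col-0, the Col-0 to labelled-line ratio was 709 (95% counting interval 196 to 5857).

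The next gene in the row, CRK15 (AT4G23230), had 0 to 0.112 CPM (median 0) in the labelled line and 0 to 3.87 (median 1.34) in Col-0. It was called lower (-5.57 ± 0.74), with an overlap at 0, and without the Col-0 library at 24 h in replicate 2 the call ended (-4.63). CRK5 (AT4G23130) was called higher, with 5.09 to 22.7 CPM (median 17.7) in the labelled line, against 0.479 to 9.84 (median 6.35) in Col-0, a difference of 1.66 ± 0.26 with overlapping ranges. CRK13 (0.86 ± 0.21), CRK17 (0.07 ± 0.15), CRK21 (-0.03 ± 0.10) and CRK29 (0.13 ± 0.13) were not called.

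In AT5G28 the differences were the densest, and their sizes were large. AT5G28030 had 343, 275 and 137 CPM at 0 h, then 391, 245 and 102 at 2 h and then 413, 361 and 248 at 24 h in the labelled line, against 2.09, 1.47 and 2.38, then 2.67, 3.47 and 2.90, then 3.73, 3.73 and 3.41 in Col-0. It was the most abundant of the 35 in the labelled line, and the log2 difference was 6.63 ± 0.28. Within the labelled line, replicate 3 was the lowest at each time. AT5G28350 was the reverse, with 0 to 0.503 CPM (median 0.0945) in the labelled line and a narrow 22.3 to 29.2 (median 25.6) in Col-0, a difference of -7.87 ± 0.32.

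AT5G28050 had 48.3 to 77.2 CPM (median 59.3) in the labelled line, against 106 to 983 (median 179) in Col-0, where the 3 libraries at 24 h had 983, 179 and 536. AT5G28010 had 0.0305 to 1.14 CPM (median 0.340) in the labelled line, against 3.26 to 5.79 (median 4.44) in Col-0. AT5G28910, at the other end of the run, had 1.85 to 8.17 (median 2.81) in the labelled line, against 0.0916 to 0.886 (median 0.579) in Col-0. Each of the 3 separated the genotypes fully.

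The 4 remaining loci of AT5G28 without overlap were low in both groups. AT5G28442 had 0 to 0.0970 CPM in the labelled line and 0.852 to 1.98 in Col-0, and AT5G28460 had 0 to 0.0975 and 0.450 to 1.17. AT5G28463 and AT5G28660 had 101 and 104 counts over the labelled line and 0 in every Col-0 library, which puts the labelled line at least 33.2-fold and 34.2-fold higher with Col-0 at the same floor. Of the 39 tested loci in AT5G28, 13 were called, 4 higher and 9 lower in the labelled line, and the median absolute log2 difference was 0.44.

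Beyond the 35, 28 loci were called with some overlap of libraries, 8 higher and 20 lower in the labelled line. Of these, 2 belong to the lists of stress and photosynthesis genes. TRE1 (AT4G24040), the trehalase that splits the sugar trehalose, had 14.8 to 94.2 CPM (median 26.5) in the labelled line and 8.30 to 28.2 (median 15.1) in Col-0, a difference of 1.00 ± 0.20. IM (AT4G22260), the plastid terminal oxidase named after the immutans mutant, had 43.7 to 65.5 CPM (median 49.3) in the labelled line and 60.6 to 112 (median 76.8) in Col-0, a difference of -0.59 ± 0.09. The TRE1 call ended without any 1 of 11 of the 18 libraries (0.93 to 1.03), and that of IM held in each fit without 1 library.

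The receptor kinases, tau glutathione transferases, MSRB genes and chaperones are given above. For the other lists, calls between genotypes stand beside 9.4% of the 670 loci and 0.502% of all tested loci. None of the 25 tested transcription factors and none of the 19 tested transporters and channels was called, with medians of 0.01 and 0.05 and ranges of -1.94 to 1.13 and -0.70 to 0.47. Among 9 photosynthesis and chlorophyll genes 1 was called lower (IM, median of the list -0.05), among 13 salt, ABA and sugar stress genes 2 were called higher (CORI3 and TRE1, median 0.01), and among 4 berberine bridge enzyme-like oxidases and 3 gibberellin genes none was. Over all tested loci the median was -0.01.

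Among the 35 loci without overlap, whose sign at each time is fixed by how they were picked, the size of the difference varied with time. The range of the log2 difference over the 3 times had a median of 0.88, from 0.08 to 5.11. The widest range was that of CRK14 (-10.41, -9.29 and -5.31 at 0, 2 and 24 h), whose labelled-line libraries held 2 counts in all, so its fitted values depend on the prior count. AT5G28350 had -7.26, -8.05 and -8.31, and AT4G24420 had 7.56, 6.69 and 6.73.

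Whether a difference changed with salt was tested as the interaction, the change since 0 h in the labelled line minus that in Col-0. No locus of the runs and none of the 19316 tested was called at 2 h or at 24 h (0% each, edgeR's quasi-likelihood test), and DESeq2's Wald test called none of the 670 either. With the replicate block none of the 670 was called at either time. At an unadjusted p under 0.05 there were 10 of the 670 and 80 of all tested loci at 2 h, and 8 and 99 at 24 h, and with DESeq2 92 and 122 of all loci at the 2 times. The 80 and 99 were 0.414% and 0.513% of all tested loci, below the share that such a p leaves where nothing differs. The fit without the block was thus conservative for the interaction. The lowest unadjusted p at 24 h was that of AT4G21326 (0.00387, adjusted p = 1.00), whose difference was 3.00, 3.24 and 4.00 at 0, 2 and 24 h. A p that misses the threshold does not show that the differences stayed equal. For AT4G21326 the interaction at 24 h was 1.00 ± 0.30.

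Many loci of the runs changed between 0 h and the later times in salt, a comparison that was not used to choose them. At 2 h in the labelled line 33 of the 670 rose and 11 fell, 4.93% and 1.64%, beside 3.61% and 2.25% of all tested loci, and in Col-0 45 rose and 20 fell, 6.72% and 2.99%, beside 5.76% and 3.83%. At 24 h in the labelled line 63 rose and 71 fell, 9.4% and 10.6%, beside 10.1% and 8.43% of all tested loci, and in Col-0 69 rose and 71 fell, 10.3% and 10.6%, beside 10.4% and 8.34%. These shares lie near those of all tested loci. By run, in chromosome order, 11, 29 and 4 loci were called at 2 h in the labelled line and 18, 41 and 6 in Col-0, and 49, 82 and 3 at 24 h in the labelled line and 45, 91 and 4 in Col-0. The median change of the 670 was -0.02 at 2 h and -0.06 at 24 h in the labelled line, beside -0.03 at both times over all tested loci. In Col-0 it was -0.01 at 2 h and -0.06 at 24 h, beside -0.03 and -0.01.

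With the replicate number as a block, the counts grew to 124 and 175 at 2 h and 251 and 249 at 24 h in the labelled line and Col-0, beside 18%, 25%, 36.3% and 35.7% of all tested loci. Leaving out single libraries moved the counts past 1.5 times in these fits. The 44 calls at 2 h in the labelled line became 27, 24 and 17 without its 0 h replicate 1, 2 or 3 and 21 and 18 without its 2 h replicate 2 or 3. The 65 at 2 h in Col-0 became 40, 32 and 42 without its 0 h replicate 1, 2 or 3 and 42, 40 and 27 without its 2 h replicate 1, 2 or 3. The 134 at 24 h in the labelled line became 73 and 69 without its 0 h replicate 2 or 3 and 62 and 81 without its 24 h replicate 1 or 3. The 140 at 24 h in Col-0 became 83 and 83 without its 0 h replicate 2 or 3, 63 and 63 without its 24 h replicate 1 or 3, and 221 without its 24 h replicate 2.

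The salt calls were in part the same loci in both genotypes. At 2 h, 35 loci were called in both, 79.5% of the 44 in the labelled line and 53.8% of the 65 in Col-0, and at 24 h 96 were, 71.6% of the 134 and 68.6% of the 140. All 35 and all 96 went in the same direction. The same overlap over all tested loci is not given here, so this sharing is not shown to be particular to the runs. A call in 1 genotype alone does not show that the genotypes differed in that change, and no interaction was called.

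**Figure D4:**
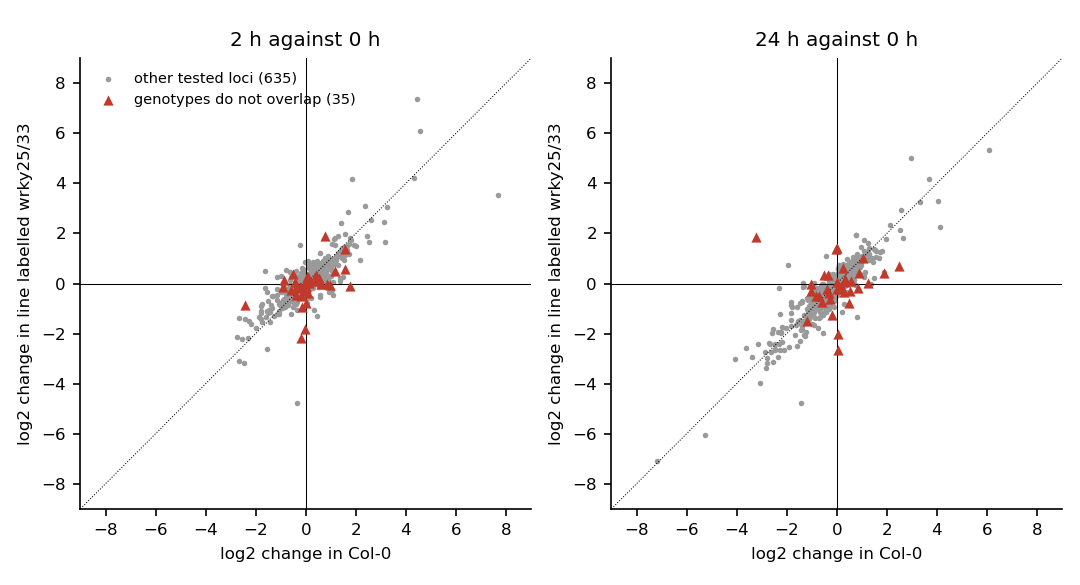
Log2 change since 0 h in the line labelled wrky25/33 (vertical axis) against the change in Col-0 (horizontal axis) for the 670 tested loci, at 2 h on the left and 24 h on the right. Red triangles are the 35 loci whose libraries did not overlap between genotypes, grey points the others, and the dotted line marks equal change.

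Of the 35 loci that separated the genotypes, the salt comparisons called 2 at 2 h and 2 at 24 h in the labelled line and 2 at 2 h and 4 at 24 h in Col-0. Of all tested loci, 3.61% were called higher and 2.25% lower at 2 h in the labelled line, and 5.76% and 3.83% in Col-0. At 24 h these shares were 10.1% and 8.43% in the labelled line and 10.4% and 8.34% in Col-0. The 35 were picked by their separation over all times together, which tends to leave out loci that change much with salt. Nothing is therefore read from how their salt calls compare with these shares. AT4G21326 fell at 24 h in Col-0 (-1.04 ± 0.22, adjusted p = 0.00556), where its libraries had 3.02, 2.97 and 4.26 CPM at 24 h and 7.14, 8.43 and 5.40 at 0 h. AT5G28050 rose at 24 h in Col-0 (1.88 ± 0.41, adjusted p = 0.00669), and CRK14 fell there (-3.23 ± 0.70, adjusted p = 0.00791). Leaving out any 1 library ended none of these 3 calls.

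The other salt calls among the 35 each ended without 1 or more libraries, in fits without the replicate block. With all libraries and the block, each of them held at a lower adjusted p. These ran from 0.00133 (CORI3) to 0.0264 (AT4G22280, edgeR's quasi-likelihood test). Leaving out libraries in fits with the block was not tested. CORI3 rose at 2 h in Col-0 (1.56 ± 0.41, adjusted p = 0.0240), with 1.82, 4.32 and 5.66 CPM at 2 h and 0.761, 1.32 and 1.92 at 0 h, a call that was lost when Col-0 0 h replicate 1 or 2, or its 2 h replicate 2 or 3, was left out (adjusted p = 0.0855, 0.0863, 0.0629 and 0.133). In the labelled line CORI3 changed by 0.59 ± 0.36 at 2 h, which was not called. AT5G28910 rose at 2 h in both genotypes (1.37 ± 0.36 in the labelled line and 1.56 ± 0.43 in Col-0, adjusted p = 0.0334 and 0.0328). Leaving out 0 h replicate 1 or 3 or any 2 h replicate ended its call in the labelled line (adjusted p = 0.0963, 0.140, 0.0681, 0.129 and 0.0548) and leaving out 0 h replicate 2 or 3 or any 2 h replicate of Col-0 ended that in Col-0 (adjusted p = 0.111, 0.0934, 0.0756, 0.0584 and 0.101).

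AT5G28010 fell in the labelled line by 2.18 ± 0.57 at 2 h (adjusted p = 0.0310), and likewise at 24 h by 2.01 ± 0.56 (adjusted p = 0.0231), comparisons that share their 0 h libraries. Leaving out 0 h replicate 2 or 3 or any 2 h replicate ended the 2 h call (adjusted p = 0.0842, 0.119, 0.104, 0.0740 and 0.0614) and leaving out 0 h replicate 2 or 3, or 24 h replicate 1, ended the 24 h call (adjusted p = 0.0642, 0.0854 and 0.0874). AT1G80940 rose by 0.62 ± 0.16 at 24 h in the labelled line (adjusted p = 0.0177), a call lost without 0 h replicate 1 or 3 or 24 h replicate 1 or 3 (adjusted p = 0.0520, 0.0817, 0.0534 and 0.0608). AT4G22280 fell by 1.03 on the log2 scale at 24 h in Col-0 (adjusted p = 0.0436), a call lost without any 1 of 13 of the 18 libraries, with an adjusted p of up to 0.164 without Col-0 24 h replicate 1.

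Several of the larger rises at 2 h were called in both genotypes. AT1G78070 had 83.5, 154 and 178 CPM at 2 h and 18.9, 16.7 and 12.5 at 0 h in the labelled line (3.11 ± 0.33, adjusted p = 5.63e-05), and in Col-0 it rose by 2.35 ± 0.32 (adjusted p = 0.000326). HVA22D (AT4G24960), a membrane protein known for its induction by abscisic acid (ABA), the hormone of drought and salt stress, had 47.0, 130 and 150 CPM at 2 h and 16.3, 20.5 and 19 at 0 h in the labelled line (2.55 ± 0.45, adjusted p = 0.00323). In Col-0 it had 46.5, 115 and 191 CPM at 2 h and 12.3, 19.3 and 25.5 at 0 h (2.62 ± 0.45, adjusted p = 0.00200). For HVA22D every 2 h library stood above every 0 h library in both genotypes, with replicate 1 the lowest at 2 h.

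AT1G79520 rose by 2.47 ± 0.36 at 2 h in the labelled line (adjusted p = 0.000829) and by 3.12 ± 0.36 in Col-0 (adjusted p = 0.000110). AT1G80110 rose by 3.15 ± 0.43 in Col-0 (adjusted p = 0.000371), with 10, 14.1 and 30.9 CPM at 2 h and 1.95, 1.92 and 2.33 at 0 h. The transcription factor MYB102 (AT4G21440) rose at 2 h in both, to 0.730, 3.40 and 12.0 CPM in the labelled line, against 0, 0 and 0.0650 at 0 h, and to 1.82, 6.21 and 17.7 in Col-0, against 0.951, 0.0639 and 0.275 at 0 h (adjusted p = 0.0224 and 0.0420). Its call in the labelled line ended without any 0 h replicate or 2 h replicate 3 of that line (adjusted p = 0.0768, 0.0935, 0.0915 and 0.0930). In Col-0 it ended without any 1 of 10 of the 18 libraries, with an adjusted p of up to 0.182 without Col-0 2 h replicate 3.

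Among falls at 2 h, AT4G21870, a small heat shock protein of the HSP20 family in the chaperone list, had 32.4, 20.9 and 15.4 CPM at 2 h and 94.7, 107 and 118 at 0 h in the labelled line (-2.22 ± 0.27, adjusted p = 0.000220). In Col-0 it had 25.4, 16.7 and 16.1 CPM at 2 h and 112, 109 and 117 at 0 h (-2.54 ± 0.28, adjusted p = 6.92e-05). CRK29 (AT4G21410) fell by 1.48 ± 0.23 in the labelled line (adjusted p = 0.00139) and by 2.27 ± 0.24 in Col-0 (adjusted p = 4.45e-05). AT4G22010 fell by 1.78 ± 0.37 and by 1.97 ± 0.38 (adjusted p = 0.00954 in the labelled line and 0.00393 in Col-0). The time ranges of the 3 loci did not overlap in either genotype.

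The named falls at 2 h whose calls ended when single libraries were left out were AT4G23820 in the labelled line and AT5G28630 in Col-0. Both calls held with the replicate block (adjusted p = 0.0126 and 0.00560, edgeR's quasi-likelihood test). AT4G23820 fell by 1.55 ± 0.42 in the labelled line (adjusted p = 0.0368), a call lost without 0 h replicate 2 or 3 or any 2 h replicate (adjusted p = 0.0511, 0.177, 0.104, 0.117 and 0.0979). AT5G28630 had 2.30, 2.30 and 2.56 CPM at 2 h and 8.14, 5.34 and 34.6 at 0 h in Col-0 (-2.74 ± 0.79, adjusted p = 0.0398). This call was lost without 0 h replicate 3 or any 2 h replicate of Col-0 (adjusted p = 0.222, 0.116, 0.105 and 0.127), and without 24 h replicate 2 or 3 of the labelled line (adjusted p = 0.0509 and 0.0505).

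At 24 h the largest rise in both genotypes was that of GLYI7 (AT1G80160), a glyoxalase that detoxifies methylglyoxal. It had 599, 261 and 260 CPM at 24 h and 20.9, 3.55 and 3.87 at 0 h in the labelled line (5.32 ± 1.09, adjusted p = 0.00540), and 795, 50.9 and 460 at 24 h and 13, 1.90 and 4.81 at 0 h in Col-0 (6.07 ± 1.13, adjusted p = 0.00287). The Col-0 library of replicate 2 was the lowest of the 6 at 24 h. OCT2 (AT1G79360), an organic cation and carnitine transporter, had 29.6, 15.3 and 25.1 CPM at 24 h and 1.51, 0.527 and 1.79 at 0 h in the labelled line (4.18 ± 0.71, adjusted p = 0.00181), and 46.7, 4.58 and 36.9 at 24 h and 3.19, 1.24 and 2.52 at 0 h in Col-0 (3.69 ± 0.68, adjusted p = 0.00267).

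NRT1.8 (AT4G21680), a nitrate transporter that takes nitrate out of the xylem sap, rose to 49.1, 58.3 and 53.8 CPM in the labelled line, against 6.04, 7.15 and 3.93 at 0 h (3.24 ± 0.39, adjusted p = 0.000319). In Col-0 it rose to 42.2, 59.8 and 49.6 CPM, against 7.23, 3.26 and 4.62 at 0 h (3.34 ± 0.39, adjusted p = 0.000205). AT4G20390 rose by 2.35 ± 0.41 in the labelled line (adjusted p = 0.00210). AT1G78720 rose by 2.66 ± 0.72 in Col-0 (adjusted p = 0.0189), a call lost without Col-0 0 h replicate 2 or 3 or 24 h replicate 1 or 3 (adjusted p = 0.0780, 0.0682, 0.101 and 0.0528). It was also among the 28 loci called between genotypes with overlap, with 0.325 to 3.81 CPM in the labelled line and 3.04 to 80.4 in Col-0.

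In several falls at 24 h the 0 h library of replicate 3 stood high, and the call ended without it. DIC2 (AT4G24570), a dicarboxylate carrier of the mitochondrial membrane, had 8.62, 9.24 and 8.59 CPM at 24 h and 13.9, 14.1 and 249 at 0 h in the labelled line (-3.39 ± 1.09, adjusted p = 0.0417). The call was lost with the replicate block (adjusted p = 0.0574), without 0 h replicate 3 (-0.66, adjusted p = 0.633), without any 24 h replicate (adjusted p = 0.131, 0.0948 and 0.111) or 2 h replicate 1 or 2 of that line (adjusted p = 0.0508 and 0.0523), and without 2 h replicate 2 of Col-0 (adjusted p = 0.0528). AT5G28630 fell by 2.94 ± 0.79 in the labelled line and by 3.39 ± 0.83 in Col-0 (adjusted p = 0.0197 and 0.0121). Those calls were lost in the labelled line without 0 h replicate 3 or 24 h replicate 1 or 3 (adjusted p = 0.167, 0.0929 and 0.0501) and in Col-0 without 0 h replicate 3 or 24 h replicate 1 (adjusted p = 0.07 and 0.0603).

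MSRB9 (AT4G21850), of the methionine sulfoxide reductase row, had 2.71, 3.44 and 1.31 CPM at 24 h and 14.8, 7.42 and 25.2 at 0 h in the labelled line (-2.67 ± 0.63, adjusted p = 0.0106), a call lost without 0 h replicate 3 (adjusted p = 0.0503). CRK12 (AT4G23200) had 0.457, 0.517 and 1.5 CPM at 24 h and 3.58, 6.45 and 5.49 at 0 h in the labelled line (-2.66 ± 0.66, adjusted p = 0.0128), a call lost without 24 h replicate 1 (adjusted p = 0.0688). AT4G22212 fell by 3.63 ± 0.74 in Col-0 (adjusted p = 0.00479), to 0.193, 0.755 and 1.38 CPM, against 5.00, 8.96 and 15.7 at 0 h. WRKY29 (AT4G23550), a transcription factor of immune signalling, fell by 2.70 ± 0.84 in Col-0 (adjusted p = 0.0348), a call lost without 0 h replicate 3 or any 24 h replicate of Col-0 (adjusted p = 0.242, 0.0990, 0.0746 and 0.0746).

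By gene group, receptor kinases called at 24 h had all fallen. Of the 19 tested, 1 rose and 1 fell at 2 h in each genotype. Of all tested loci, 3.61% rose and 2.25% fell at 2 h in the labelled line, and 5.76% and 3.83% in Col-0. At 24 h 4 fell in the labelled line and 10 in Col-0 and none rose, beside 8.43% and 8.34% of all tested loci called lower. The medians at 24 h were -0.48 and -1.0, beside -0.03 and -0.01 over all tested loci. CRK14 and CRK15 were among the 10. In the labelled line both were at or near 0 at every time, which left little room to fall there. The 4 became 2 without 0 h replicate 3 of the labelled line and 0 without its 24 h replicate 1, and 8 with the replicate block. The 10 became 5 without 24 h replicate 1 of Col-0 and 3 without its 24 h replicate 3. The rise at 2 h was that of CRK17 (AT4G23250), with 24.6, 34.6 and 35.7 CPM at 2 h and 11.9, 12.4 and 11.2 at 0 h in the labelled line (1.42 ± 0.25, adjusted p = 0.00380), and 23.8, 26.1 and 34.6 at 2 h and 7.04, 10.3 and 13.7 at 0 h in Col-0 (1.44 ± 0.26, adjusted p = 0.00242). CRK5 fell at 24 h by 1.8 ± 0.44 in the labelled line and by 2.54 ± 0.48 in Col-0 (adjusted p = 0.0116 and 0.00294), and the call in the labelled line was lost without its 24 h replicate 1 (adjusted p = 0.0553). No member was called in an interaction, so the genotypes are not shown to differ in these falls.

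Of 13 salt, ABA and sugar stress genes, 5 rose and 1 fell at 2 h and 5 rose and none fell at 24 h, in each genotype. Of all tested loci 3.61% rose at 2 h in the labelled line and 5.76% in Col-0, and 10.1% and 10.4% at 24 h. Their median change was 0.70 at 2 h and 0.67 at 24 h in the labelled line, and 0.86 and 0.56 in Col-0, beside medians of -0.03 to -0.01 over all tested loci. The 5 that rose at 2 h in the labelled line became 2 without its 0 h replicate 1 or 3 or 2 h replicate 2 or 3 and 3 without its 0 h replicate 2, and the 5 at 24 h in Col-0 became 3 without its 0 h replicate 2 or 24 h replicate 1 or 3. The 1 fall at 2 h, that of PCAP1, was lost in each genotype without any 1 of 13 of the 18 libraries. CPK3 (AT4G23650), a calcium-dependent protein kinase, rose at 24 h to 177, 188 and 166 CPM in the labelled line, against 105, 115 and 115 at 0 h (0.67 ± 0.13, adjusted p = 0.00334), and to 180, 167 and 157 in Col-0, against 111, 120 and 110 at 0 h (0.56 ± 0.13, adjusted p = 0.00754). PCAP1 (AT4G20260), a cation-binding protein at the plasma membrane, had 582, 616 and 654 CPM at 24 h and 310.0, 198 and 197 at 0 h in the labelled line (1.39 ± 0.26, adjusted p = 0.00298), and 752, 564 and 907 at 24 h and 376, 214 and 197 at 0 h in Col-0 (1.5 ± 0.26, adjusted p = 0.00188). TRE1 rose at 24 h in the labelled line (1.93 ± 0.36, adjusted p = 0.00310) and changed by 0.76 ± 0.35 in Col-0, which was not called. In Col-0 it had 26.0, 8.30 and 28.2 CPM at 24 h and 13.7, 9.22 and 14.1 at 0 h, with replicate 2 the lowest at both times. No interaction was called, so the genotypes are not shown to differ in this change.

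The tau glutathione transferases moved in both directions at 24 h. GSTU19 (AT1G78380) rose to 1225, 824 and 1212 CPM in the labelled line, against 445, 494 and 371 at 0 h (1.32 ± 0.28, adjusted p = 0.00676), and to 1502, 548 and 1229 in Col-0, against 425, 329 and 367 (1.55 ± 0.29, adjusted p = 0.00272). GSTU20 (AT1G78370) fell to 0.244, 0.861 and 0.388 CPM in the labelled line, against 1.73, 3.73 and 6.21 at 0 h (-3.03 ± 0.64, adjusted p = 0.00629), and to 0, 0.236 and 0.107 in Col-0, against 1.43, 1.70 and 3.30 (-4.06 ± 0.77, adjusted p = 0.00316). GSTU23, which separated the genotypes, changed by 1.01 ± 0.37 and 1.04 ± 0.43 and was not called. None of the 4 calls of GSTU19 and GSTU20 at 24 h ended when 1 library was left out.

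Of 19 tested transporters and channels, 7 rose and 3 fell at 24 h in the labelled line and 5 rose and 1 fell in Col-0, beside 10.1% and 10.4% of all tested loci called higher and 8.43% and 8.34% called lower. Their medians were 0.50 and 0.38, beside -0.03 and -0.01. The 7 became 3 without 0 h replicate 2 or 24 h replicate 1 of the labelled line and 2 without its 0 h replicate 3 or 24 h replicate 3, and the 5 in Col-0 became 3 without its 0 h replicate 2 or 24 h replicate 3. The 3 falls in the labelled line became 1 without its 0 h replicate 2 or 3 and 0 without its 24 h replicate 1 or 2. Of 9 photosynthesis and chlorophyll genes 3 rose at 24 h in each genotype (medians 0.45 and 0.50). None of these calls was left without 0 h replicate 2 or 24 h replicate 1 of the labelled line, or without 0 h replicate 3 or 24 h replicate 1 or 3 of Col-0. Of 10 chaperones 2 fell at 24 h in the labelled line and 3 in Col-0 (medians -0.40 and -0.49), and in each genotype none was left without its own 24 h replicate 1 or 3. Of 25 transcription factors 2 rose at 24 h in each genotype, near the share of all tested loci (medians 0.08 and 0.20). With the replicate block, 9 transporters rose in Col-0, 5 photosynthesis genes rose in the labelled line and 6 in Col-0, and 5 transcription factors rose in the labelled line and 4 in Col-0, all at 24 h.

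A second Arabidopsis experiment of the study gave levels that the choice of the runs had not used. It was a time course of Col-0 seedlings in 100 mM NaCl with 16 libraries of 18404537 to 24148375 counted reads. Its seedlings had the same age as those of the mutant experiment. It covered more times than that experiment, without 2 h and with some later than any there, and had 2 libraries per time. Its table was counted and scaled apart, so levels are set side by side with no test. Of the 286 loci of the chromosome 1 run 283 are in that table, and all 44 of AT5G28, while the 442 of AT4G20 to AT4G24 have no time course value here. The 19 of the 35 loci without overlap that lie in that run could therefore not be looked up, which leaves 16. At 0 h the time course (2 libraries) lay nearer to Col-0 of the mutant experiment at 14 of them and nearer to the labelled line at 2, on a scale of log2(CPM + 0.1).

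Several loci nearly silent in the labelled line were read in every time course library. AT5G28350 had 38.6 to 64.7 CPM (median 55.8) there, beside 0 to 0.503 in the labelled line and 22.3 to 29.2 in Col-0 of the mutant experiment. AT1G80970 had 1.25 to 2.45 CPM (median 2.05), beside 0 to 0.112 in the labelled line and 2.14 to 3.09 in Col-0. AT5G28442 had 1.40 to 3.58 (median 2.71), beside 0 to 0.0970 and 0.852 to 1.98. For these 3 every time course library lay above every library of the labelled line. AT5G28010 went the other way, with 0.889 to 2.19 CPM (median 1.33) in the time course, beside 0.0305 to 1.14 in the labelled line and 3.26 to 5.79 in Col-0, so that it overlapped the labelled line and lay below Col-0.

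Loci higher in the labelled line were divided in the time course. AT5G28030 had 0.697 to 8.60 CPM (median 2.91) there, beside 102 to 413 in the labelled line and 1.47 to 3.73 in Col-0, and GSTU23 had 0.419 to 2.60 (median 1.11), beside 4.87 to 15.6 and 0.405 to 1.99. AT5G28463 had 0 in all 16 time course libraries, as in the 9 Col-0 libraries. The 2 loci nearer to the labelled line at 0 h were AT1G80900, with 3.05 to 4.82 CPM (median 3.72), beside 4.69 to 7.15 in the labelled line and 1.03 to 2.96 in Col-0, and AT5G28910, with 0.252 to 3.10 (median 1.3), beside 1.85 to 8.17 and 0.0916 to 0.886.

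At some loci the Col-0 levels of the 2 experiments did not overlap. AT5G28460 had 6.52 to 12.8 CPM (median 8.65) in the time course and 0.450 to 1.17 in Col-0 of the mutant experiment. Over the 16 loci, the time course range overlapped that of Col-0 at 11, that of the labelled line at 4, both at 2 and neither at 3. The 3 were HSP91 (143 to 227 CPM), AT5G28350 and AT5G28460, and at each the time course lay above Col-0 and further from the labelled line. The ranges cover unlike times and numbers of libraries, 16 in the time course and 9 per genotype in the mutant experiment. A range over more times and libraries can be wider, so these overlaps describe the levels alone.

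**Figure D5:**
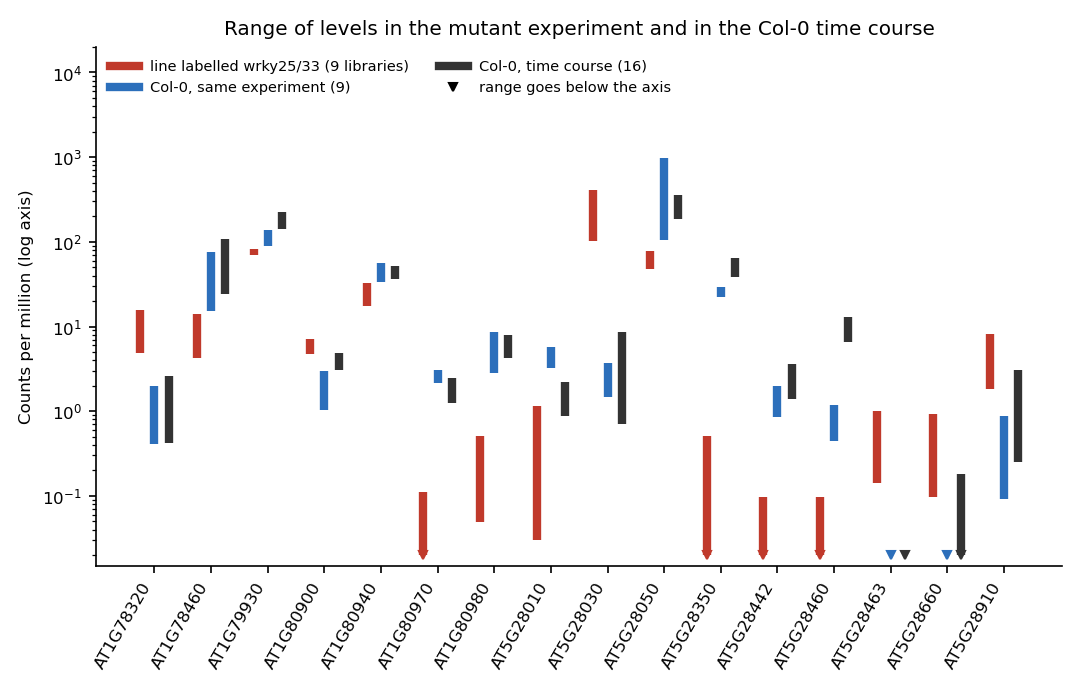
Lowest to highest CPM (log axis) of the 16 loci without overlap that are in both tables, for the line labelled wrky25/33 (red, 9 libraries), Col-0 of the same experiment (blue, 9 libraries) and the Col-0 time course (dark grey, 16 libraries, scaled apart). A triangle marks a range that goes below the axis, and the dark range overlaps the blue one at 11 loci and the red one at 4. The dark range covers more times than the other ranges, some of them later than any in the mutant experiment.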

How the data were processed

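RNA-seq counts of the mutant experiment (18 Arabidopsis seedling libraries in 6 groups) were analysed. The authors deposited whole-number counts per locus, one table per library, and for the Col-0 time course a table of expected counts, called so here since 1.42% of its values are not whole. STAR and the TAIR10 build are named in the submitters' processing notes; no source used here gives versions, the counter or the strand setting. The 4 summary lines (unmapped reads, 3.95% to 5.87%, and multimapping, no-feature and ambiguous reads) stayed out of library sizes and tests. Libraries held 17431071 to 41887006 counted reads.

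Loci passing filterByExpr (19316) were fitted in 1 model of 6 group means with edgeR 4.0.16 (R 4.3.3, limma 3.58.1), TMM scaling and the quasi-likelihood test, and p-values were adjusted by Benjamini-Hochberg over all tested loci, with calls at an adjusted p under 0.05. The genotype difference pooled over times is the mean of the 3 within-time differences, labelled line minus Col-0. It chose the loci, so it is given as a description. Salt changes are each later time minus 0 h, and both later times share the 0 h libraries. The pooled genotype contrast of the fit was tested on simulated data that held genotype differences alone. These data had no salt change and no pairing of libraries by replicate number, so the salt and interaction tests were not checked. Replicates may not be separate cultures, and p-values then measure the spread between these libraries. Time course values were turned into CPM and not tested. Intervals are 95% and, like the floor of 3 counts over the group, cover counting error only.

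The loci and the gene lists were chosen with earlier results of these data known. Loci named are, per run, those with the largest genotype difference among loci without overlap and at least 5 CPM in the higher genotype (up to 8, 12 and 5), loci at 0 in 1 genotype with at least 100 counts in the other, the first and last without overlap and their neighbours, the 4 largest rises and falls per salt comparison with at least 5 CPM, and up to 3 loci per list. Other loci without overlap were added after their values were seen. Gene names come from hand-written lists.

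The deposited sample sheet calls the replicate numbers batches. Deviations from group means correlated at 0.175 to 0.754 (median 0.369) over 45 pairs of libraries with the same number. Over 90 other pairs they correlated at -0.492 to 0.117. The numbers thus pair the libraries, and fits with the replicate number as a block are given where counts moved. Named salt values and fits without 1 library come from the fit without the block. With the block, adjusted p (quasi-likelihood test) fell from 0.0348 to 0.000259 for WRKY29, from 0.0121 to 0.000991 for AT5G28630 and from 0.0189 to 0.000451 for AT1G78720, all at 24 h in Col-0. That of DIC2 at 24 h in the labelled line rose from 0.0417 to 0.0574. Alternatives were RLE size factors, no filter, DESeq2 1.42.0, the block, leaving out each library, and leaving out batch 3, the last chosen after seeing the data.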

Additional observations from a re-analysis of the deposited data

How the results depend on the processing

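The number of loci of the runs called between genotypes was 63, and 63, 63, 86 and 93 with RLE size factors, without the low-count filter, with DESeq2 and with the replicate block. Over all tested loci 97 (0.502%) were called in the main fit, 151 with DESeq2 and 180 (0.932%) with the block. The runs held 64.9% of the 97 and 51.7% of the 180. For the other alternatives the counts over all tested loci are not given here. Counts called with salt (44 and 65 at 2 h, 134 and 140 at 24 h in the labelled line and Col-0) were 43, 66, 135 and 140 with RLE and 41, 59, 123 and 127 without the filter. DESeq2 called 71, 96, 176 and 182, beside 1906, 2721, 4678 and 4693 of all tested loci. The replicate block called 124, 175, 251 and 249, beside 18%, 25%, 36.3% and 35.7% of all tested loci. The cause of these higher counts was not tested. Without the 6 libraries of batch 3, an alternative chosen after seeing the data, the counts were 38 between genotypes and 7, 21, 13 and 14 with salt, where each group had 2 libraries. Leaving out 1 library gave 54 to 65 between genotypes, 17 to 61 and 27 to 96 at 2 h and 62 to 170 and 63 to 221 at 24 h, and 0 interactions in every fit. Of 181 calls of named loci, 179 were kept with RLE, 169 without the filter and 180 with the block, 180 of 180 with DESeq2, and 57 without batch 3, and none of these alternatives reversed one. The block ended the call of DIC2 at 24 h in the labelled line and no other. Low counts limit loci such as CRK14 and AT1G80970, whose labelled-line libraries held 2 and 3 counts.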

Other observations

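Among the tested loci that are not part of the described set, 12 separated all 9 libraries of the labelled line from all 9 Col-0 libraries, and some of these are given as values, chosen after they were seen. AT5G04815 had 1.98 to 7.10 CPM (median 4.61) in the labelled line, against 0 in all 9 Col-0 libraries, and AT3G01345 had 0 in all 9 labelled-line libraries, against 0.135 to 0.666 CPM (median 0.481) in Col-0. AT3G05945 had 2.30 to 6.74 CPM (median 3.9) in the labelled line, against 10.3 to 26.9 (median 18.1) in Col-0. AT3G06355 had 27.5 to 54.9 CPM (median 41.1) in the labelled line, against 10.2 to 16 (median 12.4) in Col-0. WRKY60 (AT2G25000) had 6 counts over the 9 labelled-line libraries and 4832 over the 9 Col-0 libraries. What these loci share with the loci of the runs was not tested.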
